A study of Mus musculus with 9 samples.

Results

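Hepatic gene expression in mice given early-life amoxicillin was compared with that in mice given no antibiotic, gene by gene, in 3 livers of each group. Genes entered by level. Each gene was represented by its brightest single-symbol probe set (by its average on all 9 arrays of the series), and 7524 of 18193 genes had a mean log2 value over 6 there. This mean covers the control, amoxicillin and tylosin arrays together, so a rise with antibiotic could lift a gene over 6 and a fall could hold one below it. Pxylp1, for example, entered with 5.22, 5.74 and 5.85 in the control arrays. The genes named below were then picked largely by the difference between amoxicillin and control. Both groups were female C57BL/6J mice, with 24 weeks of age on the sample labels and 22 weeks in the description of the protocol, and both were later fed high-fat chow. Amoxicillin mice drank water with 0.167 mg/ml of the drug, for 25 mg/kg/day, from day 10 to 15, day 28 to 31 and day 37 to 40 of life, and controls drank water without antibiotic. The comparison asks what remained in the liver long after the last course. The 3 tylosin livers of the series (0.333 mg/ml, for 50 mg/kg/day, on the same days) entered the estimate of the spread and are given beside some results. Pups of a litter stayed in 1 treatment group and 1 cage, and the litter of each array is not given. P values therefore cover only how these samples scatter, and litter, cage and treatment cannot be told apart.

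Amoxicillin is a beta-lactam antibiotic that blocks the building of bacterial cell walls. Hepatocytes make most of the RNA of the organ. Among what they regulate from day to day are chaperones, which keep proteins folded in the cytosol and in the endoplasmic reticulum, and the sterol regulatory element-binding proteins, which switch on fatty acid and cholesterol synthesis after feeding. PPAR alpha, a fatty acid-sensing nuclear receptor, drives fatty acid oxidation in fasting. In bulk tissue, fewer cells of a type and less RNA per cell cannot be told apart.

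The values are log2 array values, normalized together by the authors, and 1 unit is a doubling. They are given below in the order of replicates 1, 2 and 3. Hepatocyte markers (10 genes) had a mean of 13.86 to 13.90 in the 6 livers. Amoxicillin replicate 1 stood apart through transcripts of gut wall: the mean of 25 intestinal epithelium markers was 6.51 in it and 4.96 to 5.05 in the other 5 livers, and the mean of 13 smooth muscle markers was 6.26 against 4.90 to 5.20. In that array 13 intestinal and 5 smooth muscle markers lay over 1 log2 unit above every control array, and none did in amoxicillin replicate 2 or 3. Among the tylosin livers, which also enter the estimate of the spread, replicate 2 shared this trait, with 6.19 for the intestinal and 6.44 for the smooth muscle markers, and the other 2 had 5.21 and 5.01 for the intestinal ones. Erythroid markers had a mean of 4.78 to 4.87 in the controls and 4.38 to 4.60 with amoxicillin. The 3′ minus 5′ difference of the Actb control probe sets, a sign of RNA quality, was 1.29, 1.39 and 1.40 in the controls and 1.57, 1.39 and 1.57 with amoxicillin. The part of the erythroid level in the results was not tested. For the main genes the value without amoxicillin replicate 1 is given beside the result, and which of the other named calls were lost without it is given together further on.

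A gene was called when it passed the thresholds of the study's methods, an unadjusted limma P under 0.01 and a difference over 0.5 on the log2 scale, a fold of 1.41. With amoxicillin 99 genes rose, 1.32% of the 7524, and 21 fell, 0.279%. Over all 18193 genes with no floor on the level the shares were 0.835% higher and 0.445% lower, and over all 45037 probe sets 0.993% higher and 0.357% lower. No gene of the 7524 passed a Benjamini-Hochberg adjusted p under 0.05 from limma: the called genes had adjusted p from 0.17 to 0.25, while 947 genes were higher and 248 lower at an unadjusted P under 0.05. Differences were positive in 4835 of the 7524 genes, against which the sign counts of the lists below are to be read. The split between rises and falls depends on how the arrays are scaled. Of the called genes 82.5% were higher with the values as deposited, 91.0% with each array centred on its median, and 50% after quantile normalization, which called 39 genes in each direction. With the values as deposited, 5 of 21 falls exceeded 1 on the log2 scale, against 1 of 99 rises. The groups did not overlap in 95 of the 99 rises and 19 of the 21 falls. Of all 7524 genes, amoxicillin arrays lay wholly above the controls in 17.3% and wholly below in 6.39%. The P threshold favours such genes, so a lack of overlap in a called gene adds no further support.

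**Figure D1:**
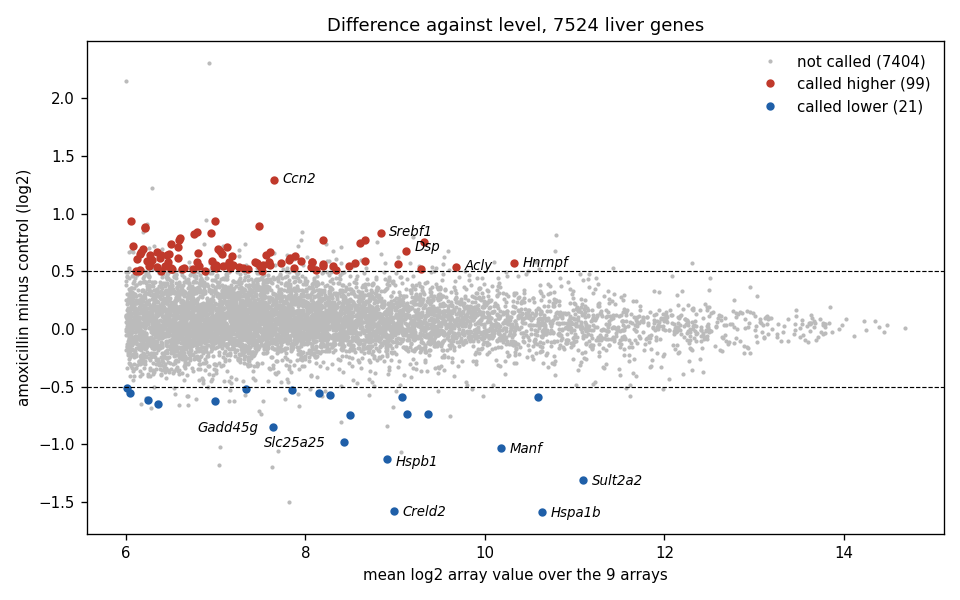
Amoxicillin minus control (log2, vertical axis) against the mean log2 array value over the 9 arrays (horizontal axis) for 7524 liver genes, 1 point a gene, with dashed lines at the fold threshold of 0.5. Red points mark genes called higher, blue those called lower and grey the rest. The 99 called higher lie mostly between 0.5 and 1, and the 21 called lower reach -1.59. Brightness also depends on the probes, so the horizontal axis does not rank genes by abundance.

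The largest fall was that of Hspa1b, one of the chaperones of the heat shock response, proteins that bind unfolded chains in the cytosol and that cells make in excess under heat or other protein damage. Of 18 heat shock genes over the floor, 3 fell (Hspa1b, Hspb1 and Hsph1) and none rose, and 17 differences were negative. The median difference of the 18 was -0.40, against 0.06 over all 7524 genes. At P under 0.05, 12 of the 18 were lower, and in 11 all amoxicillin arrays lay below all control arrays, as they did in 6.39% of all 7524 genes.

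Hspa1b encodes the inducible Hsp70 protein. Its values were 11.25, 11.28 and 11.29 in the control arrays and 9.74, 9.66 and 9.66 with amoxicillin. The arrays of a group nearly coincided, and the groups lay far apart. The difference was -1.59 (SE 0.36, adjusted p = 0.20), a 3-fold fall, and -1.61 (called) without amoxicillin replicate 1. The SE draws on the tylosin livers too, which spread from 9.85 to 11.74 for this gene. A pair of further Hspa1b probe sets gave -1.64 and -1.72. Hspa1a, a near-identical copy, has a probe set of its own that stayed under the floor, and the Hspa1b probe sets may report both genes.

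Hspb1 encodes the small heat shock protein HSP27 (HSP25 in mice), which holds damaged proteins until larger chaperones refold them, and was the gene that the study's authors also measured by qPCR. It read 9.38, 9.82 and 9.88 in the control arrays and 8.60, 8.91 and 8.18 with amoxicillin. No amoxicillin array reached the lowest control array. The difference was -1.13 (SE 0.19, adjusted p = 0.17), and a second probe set gave -1.07 and was called. Leaving out any 1 of the 6 arrays kept the call of Hspa1b and of Hspb1.

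Hsph1, a nucleotide exchange factor for Hsp70 chaperones, read 9.59, 9.61 and 10.03 in the control arrays and 9.12, 9.01 and 8.87 with amoxicillin. The groups did not overlap, and the difference was -0.74 (SE 0.23, adjusted p = 0.25). Its unadjusted P was 0.0095, near the threshold, and the call was lost when any 1 array was left out, with -0.80 without amoxicillin replicate 1.

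Several partners of these chaperones sat just outside the thresholds. Dnajb1, the J protein that feeds clients to Hsp70, differed by -0.54 (adjusted p = 0.25), and Bag3, the co-chaperone that links it to autophagy, by -0.50 (adjusted p = 0.25). Without amoxicillin replicate 1 both passed, at -0.64 and -0.58. Hsp90aa1, the inducible cytosolic Hsp90, differed by -0.48 (adjusted p = 0.24) and its adaptor Stip1 by -0.44 (adjusted p = 0.23). The mitochondrial pair Hspd1 and Hspe1 showed differences of -0.03 and -0.01, and Hspa4 was the 1 member with a positive difference, 0.13 (adjusted p = 0.53). Over the 6 livers the mean of the 18 genes, set against the control mean, was -0.12, 0.04 and 0.08 in the controls and -0.40, -0.43 and -0.50 with amoxicillin. The list median stayed between -0.48 and -0.32 when each array was left out in turn and was -0.46 without amoxicillin replicate 1. It was -0.34 after median centring and -0.47 after quantile normalization. The count of 3 falls became 7 without control replicate 1 and 2 without control replicate 2, control replicate 3 or amoxicillin replicate 3.

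**Figure D2:**
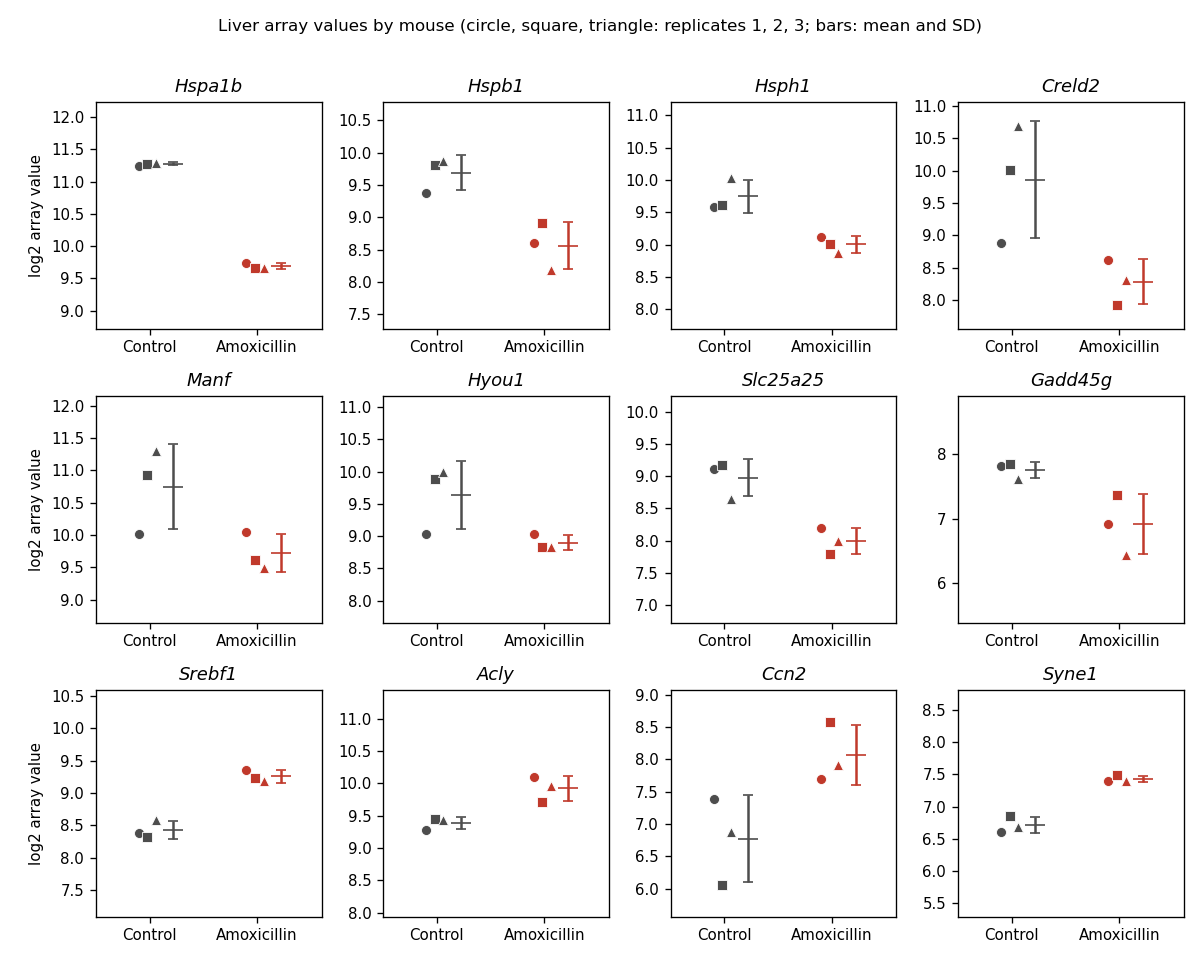
Log2 array values (vertical axes, all spanning the same 3.5 units) of 12 called genes in the 3 control and 3 amoxicillin livers, with the replicate number given by the symbol and the mean and SD beside the points. Hspa1b, Hspb1 and Slc25a25 fell and Srebf1 and Syne1 rose with no overlap between the groups, while Manf and Creld2 spread widely over the control livers.

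The promoters of the 3 heat shock genes that fell are shown because heat shock factor, the activator of this response, binds arrays of inverted GAA units. The sequences are RefSeq's on GRCm38.p6 and run from 250 bases before to 50 after the start of the gene, read 5′ to 3′ on the gene's strand. Capitals mark an inverted pair, GAANNTTC or TTCNNGAA, matched on both strands, and neighbouring matches may overlap. Hspa1b lies on the minus strand (chr17:34959189-34959488), Hspb1 on the plus strand (chr5:135887669-135887968) and Hsph1 on the minus strand (chr5:149636287-149636586, the first of 2 promoters listed).
Hspa1b: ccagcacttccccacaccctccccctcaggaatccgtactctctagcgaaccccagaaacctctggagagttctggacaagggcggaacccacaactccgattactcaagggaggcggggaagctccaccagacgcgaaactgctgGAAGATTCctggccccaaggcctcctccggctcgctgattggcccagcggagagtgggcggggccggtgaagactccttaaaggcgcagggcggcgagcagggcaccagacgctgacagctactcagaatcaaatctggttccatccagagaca
Hspb1: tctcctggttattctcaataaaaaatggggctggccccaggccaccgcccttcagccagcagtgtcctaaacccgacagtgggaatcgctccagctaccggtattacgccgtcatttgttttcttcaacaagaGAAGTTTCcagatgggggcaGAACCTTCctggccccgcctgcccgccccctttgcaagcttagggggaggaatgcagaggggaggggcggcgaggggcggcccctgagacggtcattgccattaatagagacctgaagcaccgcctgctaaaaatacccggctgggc
Hsph1: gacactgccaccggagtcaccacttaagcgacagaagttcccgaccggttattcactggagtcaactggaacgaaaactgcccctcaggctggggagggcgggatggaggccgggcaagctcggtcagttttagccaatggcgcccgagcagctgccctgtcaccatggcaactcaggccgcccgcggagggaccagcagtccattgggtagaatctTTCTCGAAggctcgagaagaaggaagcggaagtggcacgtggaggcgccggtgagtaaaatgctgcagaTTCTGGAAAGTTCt
An inverted pair was found in all 3, once in Hspa1b, at 2 places in Hspb1 and at 3 in Hsph1. Of the 18 heat shock genes 16 had a promoter in the table, and 11 of these held a pair, which 17.0% of all 27025 genes with a promoter did. The list gathers genes known for the heat shock response, so its share says nothing about amoxicillin. Hspd1 and Hspe1, which were not called, held a pair too. The match describes these letters and does not show binding.

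A second group of falls lay in the endoplasmic reticulum, whose chaperones and quality-control factors are made on demand when secreted proteins misfold. Of 19 such genes 4 fell (Creld2, Manf, Hyou1 and Dnajb9), none rose, and 16 differences were negative, with a median of -0.34. Control replicate 1 differed from the other controls here: the mean of the 19 genes was -0.47 in it, 0.15 and 0.31 in the other controls and -0.22, -0.51 and -0.55 with amoxicillin. The groups therefore overlapped at the level of the list mean. The count of 4 falls became 8 without control replicate 1 and 3 without amoxicillin replicate 1. It became 1 without amoxicillin replicate 3, and 0 without control replicate 2, control replicate 3 or amoxicillin replicate 2. The median was -0.21 without control replicate 3.

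Creld2, a disulfide isomerase-like protein induced by endoplasmic reticulum stress, read 8.89, 10.01 and 10.69 in the control arrays and 8.62, 7.92 and 8.32 with amoxicillin. Control replicate 1 lay close to the amoxicillin livers and the other controls lay over 1 unit above them. The difference was -1.58 (SE 0.41, adjusted p = 0.22), and -1.75 (called) without amoxicillin replicate 1.

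Manf, a protective factor that is kept in the endoplasmic reticulum and released under stress, read 10.02, 10.93 and 11.30 in the control arrays and 10.05, 9.61 and 9.49 with amoxicillin. Control replicate 1 was just below amoxicillin replicate 1, so the groups overlapped, and the difference was -1.03 (SE 0.30, adjusted p = 0.24). Hyou1, an Hsp70-like chaperone that works with BiP, read 9.04, 9.88 and 9.99 in the control arrays and 9.03, 8.83 and 8.84 with amoxicillin, with a difference of -0.74 (SE 0.22, adjusted p = 0.24). Both of its probe sets over the floor were called, and the call of the brighter one was lost without amoxicillin replicate 1, at -0.80.

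Dnajb9, a J protein that binds BiP and the stress sensor IRE1, read 10.60, 11.03 and 10.93 in the control arrays and 10.57, 9.99 and 10.22 with amoxicillin. Amoxicillin replicate 1 lay just under the lowest control array, and the difference of -0.59 (SE 0.16, adjusted p = 0.22) became -0.75 (called) without it. Sdf2l1, a component of the same chaperone complex, differed by -1.20 (adjusted p = 0.34) with overlapping arrays. The main luminal chaperone BiP (Hspa5) differed by -0.37 (adjusted p = 0.38) and Ddit3, the stress-induced transcription factor CHOP, by -0.58 (adjusted p = 0.32). Xbp1, the transcription factor of the response, differed by 0.17 (adjusted p = 0.41).

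The Creld2 promoter is shown for the same reason as those above, with capitals marking CCAAT and CCACG held 9 bases apart, the spaced motif named for the endoplasmic reticulum stress response and here read on the opposite strand. It lies on the plus strand (chr15:88819396-88819695).
Creld2: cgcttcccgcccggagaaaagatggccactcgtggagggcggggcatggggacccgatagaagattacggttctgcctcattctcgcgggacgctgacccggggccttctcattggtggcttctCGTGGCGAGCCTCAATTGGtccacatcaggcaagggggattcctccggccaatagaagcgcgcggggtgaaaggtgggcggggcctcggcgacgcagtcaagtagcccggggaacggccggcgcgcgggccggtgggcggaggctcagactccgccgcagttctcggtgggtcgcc
This motif was found in the promoters of 0.137% of the 27025 genes and of 6 of 17 endoplasmic reticulum stress genes with a promoter in the table. Of the 4 that fell, 2 had a promoter there, and that of Dnajb9 did not hold the motif. The table has no entry for Manf or Hyou1. The genes of this list too were gathered for a known response, so their share says nothing about amoxicillin.

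Slc25a25, which carries ATP-Mg and phosphate across the inner mitochondrial membrane and follows a daily rhythm in liver, read 9.11, 9.17 and 8.65 in the control arrays and 8.19, 7.80 and 7.9998 with amoxicillin. Every amoxicillin array was below every control array. The difference was -0.98 (SE 0.18, adjusted p = 0.17), and -1.08 (called) without amoxicillin replicate 1, and the call held with any 1 array left out. Of the other 10 clock output genes over the floor none was called.

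Sult2a2, a sulfotransferase of bile acids and steroids, read 12.32, 10.96 and 11.22 in the control arrays and 9.54, 10.07 and 10.97 with amoxicillin. Control replicate 1 was the highest liver, and amoxicillin replicate 3 was level with the lowest control. The difference was -1.31 (SE 0.39, adjusted p = 0.24), and -0.98 without amoxicillin replicate 1, where the call was lost. None of the other 22 conjugation enzymes over the floor was called.

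Gadd45g, a stress- and fasting-induced growth arrest gene of liver, read 7.81, 7.84 and 7.62 in the control arrays and 6.92, 7.37 and 6.44 with amoxicillin, with no overlap and a difference of -0.85 (SE 0.22, adjusted p = 0.22). Its relative Gadd45b lay just outside the thresholds at -0.63 (adjusted p = 0.25). Another 10 falls were between -0.65 and -0.51. They were Lama5 (-0.65), a laminin chain of basement membranes, Acsf2 (-0.62), a mitochondrial acyl-CoA synthetase, Smg9 (-0.62), a factor of nonsense-mediated RNA decay, St3gal6 (-0.57), a sialyltransferase, Inpp5j (-0.56), an inositol phosphatase, and C2cd2l (-0.52), Caly (-0.51), Cysrt1 (-0.53), Tcl1b3 (-0.59) and 3110021A11Rik (-0.55). Without amoxicillin replicate 1, 8 of these 10 lost the call: Lama5 (-0.54), Tcl1b3 (-0.55), 3110021A11Rik (-0.49), Acsf2 (-0.48), Cysrt1 (-0.48), St3gal6 (-0.46), C2cd2l (-0.46) and Caly (-0.43). Inpp5j (-0.55) and Smg9 (-0.55) kept it. Smg9 also kept it with any other array left out, at 6.60, 6.51 and 6.72 in the control arrays and 5.87, 6.20 and 5.91 with amoxicillin. St3gal6 rests on its brightest probe set, since the other 2 over the floor gave 0.04 and -0.03.

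Among the rises, the smallest P of all 7524 genes belonged to Srebf1, which encodes SREBP-1, the transcription factor that switches on fatty acid synthesis when insulin is high. Its values were 8.38, 8.31 and 8.58 in the control arrays and 9.36, 9.23 and 9.18 with amoxicillin. The lowest amoxicillin liver lay well above the highest control. The difference was 0.83 (SE 0.11, adjusted p = 0.17), a 1.78-fold rise, and 0.78 (called) without amoxicillin replicate 1.

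Acly, which makes the cytosolic acetyl-CoA that fatty acid synthesis starts from, also rose. It read 9.28, 9.44 and 9.43 in the control arrays and 10.09, 9.71 and 9.96 with amoxicillin, with a difference of 0.54 (SE 0.15, adjusted p = 0.22). Another Acly probe set gave 0.63 and was called, and one with 0.64 narrowly missed the P threshold. Without amoxicillin replicate 1 the brightest fell short of both thresholds, at 0.45.

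All 14 fatty acid synthesis genes over the floor had positive differences, with a median of 0.27, but Srebf1 and Acly were the only ones called. Fasn, the fatty acid synthase, read 8.94, 8.30 and 8.43 in the control arrays and 9.06, 8.96 and 9.91 with amoxicillin, without overlap and with a difference of 0.75 (adjusted p = 0.30). Scd1, the desaturase that makes oleate, differed by 0.04 (adjusted p = 0.94). The list was highest in amoxicillin replicate 3. There the mean of the 14 genes was 0.77 above the control mean, against 0.17 and 0.04 in the other amoxicillin livers. The controls were at 0.32, -0.24 and -0.08, so control replicate 1 lay above amoxicillin replicates 1 and 2. Leaving out amoxicillin replicate 3 gave a median of -0.04 with 8 of 14 negative. Leaving out control replicate 2 gave 0.10, and leaving out amoxicillin replicate 1 gave 0.33. Mbtps2, the protease that releases SREBPs from the Golgi membrane, passed the fold threshold narrowly at 0.50 (SE 0.15, adjusted p = 0.25), with 6.76, 6.61 and 6.25 in the control arrays and 6.98, 6.91 and 7.24 with amoxicillin.

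Cholesterol synthesis, the branch driven mainly by SREBP-2, also had positive differences throughout, without a call. Of 19 genes over the floor 19 were on the higher side, 0 passed the thresholds and the median was 0.43. Cyp51, a demethylase of lanosterol, had the largest difference, 0.77 (SE 0.47, adjusted p = 0.46). It read 8.76, 7.70 and 6.96 in the control arrays and 7.998, 8.62 and 9.11 with amoxicillin. The groups overlapped: the mean of the list, set against the control mean, was 0.64, -0.10 and -0.54 in the controls and -0.06, 0.38 and 0.86 with amoxicillin. Control replicate 1 thus lay above amoxicillin replicates 1 and 2. The median was 0.71 without amoxicillin replicate 1, 0.16 without amoxicillin replicate 3 and 0.12 without control replicate 3. Without control replicate 1, 2 genes were called higher.

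Fatty acid oxidation and the targets of PPAR alpha were mostly on the lower side. Of 24 genes 1 fell, Cyp4a31, a fatty acid hydroxylase, and 23 had negative differences, with a median of -0.23. Cyp4a31 read 9.03, 8.81 and 8.89 in the control arrays and 7.69, 8.64 and 8.16 with amoxicillin, with a difference of -0.75 (SE 0.20, adjusted p = 0.22). Amoxicillin replicate 1 was the lowest liver by far, and without it the difference was -0.51 (not called). A second Cyp4a31 probe set, just under the floor, gave 0.46 with overlapping arrays. The list as a whole was also lowest in amoxicillin replicate 1. Its mean there was -0.61 against the control mean, while the other amoxicillin livers were at -0.18 and -0.05. The controls were at 0.01, 0.06 and -0.07, so amoxicillin replicate 3 lay within their range. The list median without amoxicillin replicate 1 was -0.09. Ppara itself differed by -0.29 (adjusted p = 0.32), and by -0.35 without that liver. The largest differences were not called: Pdk4, the kinase that spares glucose by holding pyruvate dehydrogenase off, differed by -0.81 (adjusted p = 0.45) and the acyl-CoA thioesterase Acot2 by -0.76 (adjusted p = 0.37).

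**Figure D3:**
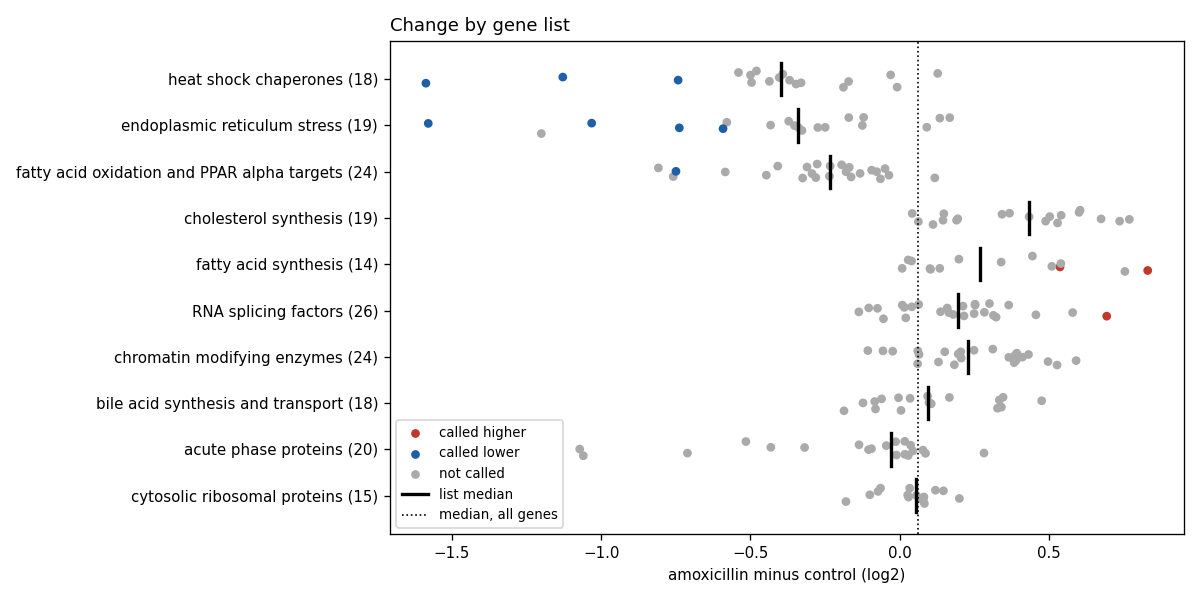
Amoxicillin minus control (log2, horizontal axis) for the genes of 10 lists, 1 point a gene, with the number of genes over the floor in brackets, a bar at each list median and a dotted line at the median of all 7524 genes. Heat shock and endoplasmic reticulum stress genes lie to the left, with medians of -0.40 and -0.34, and cholesterol synthesis to the right, at 0.43 with no gene called.

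**Figure D4:**
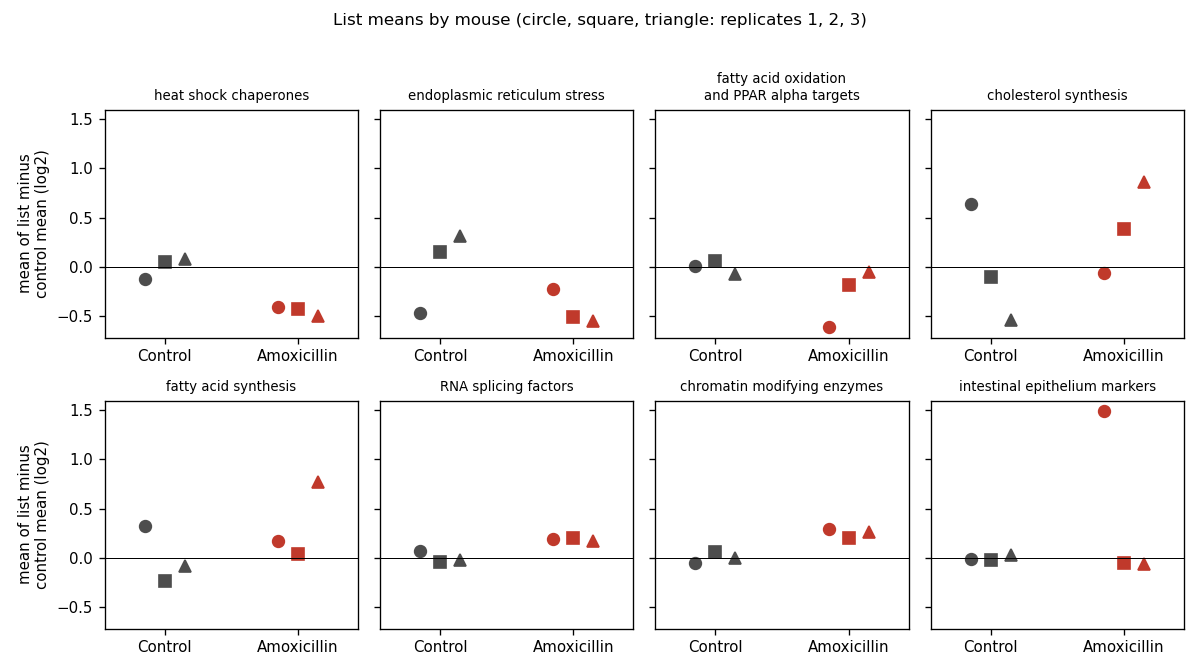
Mean of each gene list in each liver minus its mean over the 3 control livers (log2, vertical axes), with the replicate number given by the symbol. Heat shock means do not overlap between the groups, cholesterol synthesis means do, and the intestinal epithelium markers stand out in amoxicillin replicate 1 among these 6 livers.

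The largest rise was that of Ccn2, connective tissue growth factor, a secreted matrix-associated protein induced by TGF beta and by the YAP and TAZ coactivators. It read 7.38, 6.05 and 6.88 in the control arrays and 7.70, 8.58 and 7.91 with amoxicillin. All amoxicillin arrays were above all control arrays, though both groups spread widely. The difference was 1.29 (SE 0.33, adjusted p = 0.22), a 2.45-fold rise, and 1.48 (called) without amoxicillin replicate 1. Of the other 13 extracellular matrix and TGF beta target genes over the floor none was called. Amot, angiomotin, which binds YAP at cell junctions, rose by 0.64 (SE 0.14, adjusted p = 0.20) from 6.07, 5.91 and 5.70 to 6.69, 6.49 and 6.42. Its probe sets under the floor went the other way. One gave -0.43, from 5.01, 4.83 and 5.12 in the control arrays to 4.48, 4.67 and 4.53 with amoxicillin, and the other gave -0.17. Ccn1, another YAP target, differed by -0.37 (adjusted p = 0.41). Wwtr1, which encodes TAZ and was picked out after its values were seen, rose by 0.55 (SE 0.16, adjusted p = 0.23), from 6.88, 6.66 and 6.54 to 7.27, 7.06 and 7.39.

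The other large rises are arranged by known role for description, after their values were seen and with no test of any role. Syne1, nesprin-1, which ties the nucleus to the cytoskeleton, read 6.61, 6.85 and 6.68 in the control arrays and 7.39, 7.48 and 7.40 with amoxicillin, with a difference of 0.71 (SE 0.10, adjusted p = 0.17). Dsp, desmoplakin, which anchors keratin filaments at desmosomes, read 8.64, 8.97 and 8.63 in the control arrays and 9.56, 9.35 and 9.35 with amoxicillin. It rose by 0.67 (SE 0.14, adjusted p = 0.19), and its second probe set by 0.75. Mapre2, which binds growing microtubule ends, rose by 0.67, highest in amoxicillin replicate 1, and by 0.51 without it. Its other probe set over the floor gave 0.30, and those under the floor gave -0.26, -0.04 and -0.04. Asap2 and Dock4, regulators of small GTPases that remodel the actin cortex, rose by 0.94 and 0.74. Of 24 actin cytoskeleton genes 0 were called, with a median of 0.13.

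Stx6, a SNARE of the trans-Golgi network, read 6.33, 6.18 and 6.22 in the control arrays and 6.99, 7.17 and 7.04 with amoxicillin, with a difference of 0.82 (SE 0.14, adjusted p = 0.17). Its other probe set over the floor gave 0.05. Rab11fip2, of recycling endosomes, rose by 0.77. Appl1, an adaptor that joins adiponectin receptors to insulin signalling, rose by 0.66, and Sos2, an exchange factor for Ras, by 0.64. Ip6k2, a kinase that makes inositol pyrophosphates, read 7.23, 6.55 and 7.14 in the control arrays and 7.80, 7.998 and 7.80 with amoxicillin, with a difference of 0.90 (SE 0.20, adjusted p = 0.20), against 0.19 in its other probe set. S1pr3, a receptor for sphingosine 1-phosphate, rose by 0.69, highest in amoxicillin replicate 1 (6.86, 6.36 and 6.19 with amoxicillin against 5.88, 5.85 and 5.62 in the controls), and by 0.50 without it, where the call was lost. Pxylp1, a phosphatase of the sugar linker of proteoglycans, rose by 0.88, from 5.22, 5.74 and 5.85 to 6.50, 6.59 and 6.37. Tmx3, a thioredoxin-like protein of the endoplasmic reticulum membrane, rose by 0.79.

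Prox1, a homeobox factor of hepatocytes, read 7.95, 8.32 and 8.19 in the control arrays and 9.06, 8.66 and 8.97 with amoxicillin, with a difference of 0.74 (SE 0.22, adjusted p = 0.24). Klf12, a Kruppel-like repressor, read 8.16, 8.57 and 8.07 in the control arrays and 9.04, 9.17 and 8.91 with amoxicillin, and rose by 0.77. A second of its 3 probe sets over the floor was called too, at 0.59. Sall1, a zinc finger factor, rose by 0.63, and Zbed6, a repressor derived from a transposon, by 0.87. Taf1, the scaffold of the general factor TFIID, rose by 0.72, Suz12, a core subunit of the Polycomb complex PRC2, by 0.61, and Rsf1, a chromatin remodelling subunit, by 0.62. Suz12 read 7.41, 7.61 and 7.49 in the control arrays and 8.29, 7.997 and 8.06 with amoxicillin, and 1 of 2 further probe sets was called.

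The list of 24 chromatin modifying enzymes held no call, while 21 differences were positive, 12 were higher at P under 0.05 and in 13 the amoxicillin arrays lay wholly above the controls, as they did in 17.3% of all 7524 genes. Its median was 0.23, with 0.14 and 18 of 24 positive after quantile normalization. The acetyltransferases Crebbp and Ep300 differed by 0.59 (adjusted p = 0.27) and 0.39 (adjusted p = 0.22) and the maintenance DNA methyltransferase Dnmt1 by 0.53 (adjusted p = 0.29). Kdm5b, a histone H3 lysine demethylase, had the smallest unadjusted P of the genes not called and stood at 0.50 (adjusted p = 0.17), under the fold threshold with all arrays and just over it without amoxicillin replicate 1.

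Of 26 splicing factors 1 rose, Pnisr, a serine- and arginine-rich nuclear protein, which read 6.34, 6.57 and 6.84 in the control arrays and 7.15, 7.25 and 7.43 with amoxicillin and differed by 0.69 (SE 0.15, adjusted p = 0.20). None of its 5 other probe sets over the floor was called, with values from 0.07 to 0.48. Of the list, 22 of 26 differences were positive, 10 were higher at P under 0.05, and the median was 0.20, or 0.13 after quantile normalization. Srsf5 differed by 0.58 (adjusted p = 0.34) and Hnrnpd by 0.46 (adjusted p = 0.26). Outside the list, Srpk2, a kinase of splicing factors, rose by 0.66, Snrnp40, of the U5 particle, by 0.63, and Cwf19l2, a splicing-related protein, by 0.83. The transfer RNA enzymes Trmt11, Nsun3 and Cdk5rap1 rose by 0.71, 0.62 and 0.66, the last with overlapping groups.

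The other genes among the 40 largest rises were Abtb2 (0.94), Nrep (0.84), the ubiquitin ligase genes Marchf7 (0.77), Dtx4 (0.68) and Rnf170 (0.65), the antiproliferative gene Tob2 (0.76), the centrosomal gene Cep85 (0.65), and Rab10os (0.65), 2510039O18Rik (0.64) and Dpy19l4 (0.64). Rab10os is named for a transcript opposite to Rab10. The remaining 59 rises lay between 0.50 and 0.60. Among them, and picked out after their values were seen, Rictor, the defining subunit of mTOR complex 2, rose by 0.59 (SE 0.09, adjusted p = 0.17), from 6.62, 6.62 and 6.73 to 7.16, 7.22 and 7.35. Zbtb20, a repressor in hepatocytes, rose by 0.58 (SE 0.11, adjusted p = 0.19), and its 7 other probe sets over the floor had the same sign. In all, 39 called genes had other probe sets over the floor. Of these 61 probe sets, 55 had the sign of the brightest one and 11 were called. The other probe set of Rnf170 gave -0.05, and those of Prox1, Nrep and Marchf7 gave 0.43, 0.37 and 0.38 without a call. Those of Tob2 gave 0.53, 0.44 and -0.02, also without a call. Probe sets under the floor were not counted, and they went both ways. The brightest of these gave -0.03 for Sall1, -0.02 for Abtb2 and -0.30 for Cep85, but 0.56 for Srpk2 and 0.49 for Tmx3.

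Leaving out amoxicillin replicate 1 kept 52 of 99 rises and 9 of 21 falls and changed no sign. In 95 of the rises and 19 of the falls the groups did not overlap, so leaving out an array could not change their sign. The refit called 72 genes higher, 0.957% of the 7524, and 16 lower, 0.213%. Of the 47 rises and 12 falls that were lost, 23 and 6 still exceeded 0.5 with a P over the threshold. No called gene was among the 23 genes, 7 of them over the floor, that stood over 1 unit above all 5 other livers in that array. Genes so high in 1 liver spread widely within their group and could hardly be called. This count therefore cannot show whether gut transcripts entered the calls. Amoxicillin replicate 1 was not the most costly array to lose, at 59 calls. The omission of control replicate 3 cost 67, that of amoxicillin replicate 3 cost 52, and that of each of the others 34 to 42. In all 6 such fits 27 rises and 4 falls (Hspa1b, Hspb1, Slc25a25 and Smg9) were called. In none of them were 5 rises (Marchf7, Plscr2, Sgpl1, Zswim6 and Rprd2) and 1 fall (Hsph1).

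The genes that lost the call with the largest differences left were Sult2a2, Marchf7 (0.81), Hyou1, Hsph1, Zbed6 (0.68), Prox1 (0.66), Tob2 (0.66) and Nrep (0.65). Among the other named rises the call was also lost by S1pr3, Rsf1 (0.50), Sos2 (0.58), Cdk5rap1 (0.52), 2510039O18Rik (0.52), Dpy19l4 (0.60), Acly, Mbtps2 (0.53), Ifrd1 (0.41) and Wwtr1 (0.53). Nrep was highest in the liver left out, at 7.60, 7.06 and 7.003 with amoxicillin against 6.53, 6.41 and 6.22 in the controls. The refit also called 20 genes higher and 7 lower that had not been called before. Usp2, a deubiquitinase with a daily rhythm in liver, read 7.64, 6.85 and 7.68 in the control arrays and 7.41, 6.37 and 6.50 with amoxicillin, and differed by -0.95 without that liver against -0.63 with it.

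Bhlhe40, a repressor of the clock, went from -0.45 to -0.77, with 8.83, 8.47 and 8.83 in the control arrays and 8.90, 7.84 and 8.05 with amoxicillin. In both genes amoxicillin replicate 1 lay at the level of the controls. Insig2, which holds SREBPs in the endoplasmic reticulum, differed by 0.58 without it and by 0.39 with it. The other large gains were Tafa2 (1.07), C730049O14Rik (0.99), Rnf125 (0.92), Sh3pxd2a (0.91), Cgn (0.75), the gene of the tight junction protein cingulin, and Trim2 (0.70).

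**Figure D5:**
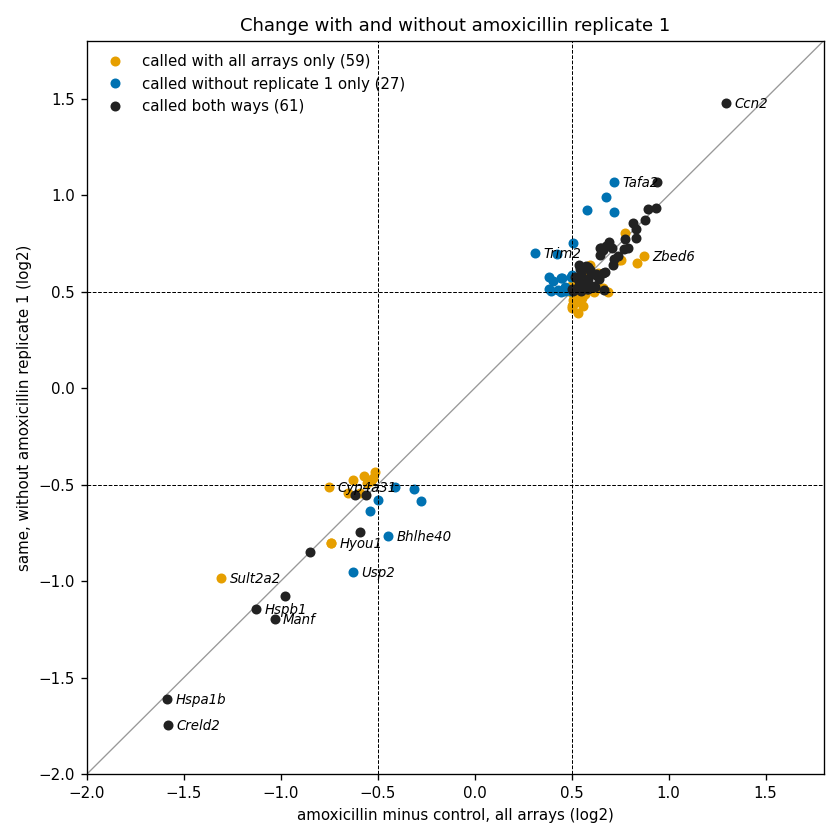
Amoxicillin minus control (log2) with all arrays (horizontal axis) against the same without amoxicillin replicate 1 (vertical axis) for the genes called in either fit, with dashed lines at 0.5 and the line of equality. Black points were called both ways, orange with all arrays only and blue without that liver only. The 61 genes called both ways include Hspa1b, Creld2, Hspb1, Manf and Ccn2, and Sult2a2 moves furthest toward 0 among the falls.

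Many liver functions gave no call. None was made among 18 bile acid genes (median 0.10), where Cyp7a1, which sets the rate at which cholesterol becomes bile acid, differed by 0.48 (adjusted p = 0.32), and by 0.61 without amoxicillin replicate 1. Nor was there a call among 18 cytochromes P450 of families 1 to 3 (median -0.05), 12 gluconeogenesis genes (median -0.01) or 30 genes of oxidative phosphorylation (median 0.03). The 20 acute phase genes had a median of -0.03. Among these Saa1, a secreted marker of inflammation, read 8.22, 8.53 and 11.55 in the control arrays and 7.77, 9.06 and 8.25 with amoxicillin, high in control replicate 3 alone. Kupffer cell and macrophage markers (12 genes), interferon response genes (16) and complement and coagulation genes (26) had medians of 0.00, 0.02 and -0.01 with no call. The Kupffer cell median was -0.19 without amoxicillin replicate 1, which had the highest mean of these markers, 8.60 against 7.93 to 8.50 in the controls. Ppargc1a, a coactivator of gluconeogenesis and mitochondrial genes, had groups that did not overlap and a difference of 0.84 (adjusted p = 0.29) that missed the threshold.

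The fold threshold passes through a dense range of values. Just inside it lay Tanc1 (0.50), Ifrd1 (0.50) and Mbtps2 (0.50) and just outside Tmem168, Cdc14b and Zmat1, all at 0.50 after rounding. Among falls, Caly (-0.51), C2cd2l (-0.52) and Cysrt1 (-0.53) were just inside, and Bag3 (-0.50), Hsp90aa1 (-0.48) and Odf3b (-0.47) just outside.

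Beside the same controls, tylosin called 127 genes higher (1.69%) and 23 lower (0.306%). Both comparisons share the control arrays, so their values are only set side by side. Of the 99 rises with amoxicillin, 99 had positive differences with tylosin and 46 were called. Of the 21 falls, 19 had negative differences with tylosin and 7 were called. The shared controls favour the same direction. Hspb1 differed from control by -1.13 with amoxicillin and -1.22 with tylosin, Ccn2 by 1.29 and 1.35, Srebf1 by 0.83 and 0.42, and Creld2 by -1.58 and -1.06. Tested directly, 11 genes were higher with tylosin than with amoxicillin (0.146%) and 3 lower (0.0399%), 0 with an adjusted p under 0.05 from limma and 245 with an unadjusted P under 0.05. Among these 14 were 3 of the genes that fell with amoxicillin, and in all 3 tylosin was higher: Hspa1b by 1.26 (SE 0.36), Gadd45g by 1.34 (SE 0.22) and Sult2a2 by 1.40 (SE 0.39). These 3 had been picked for low amoxicillin values, and the test uses the same amoxicillin arrays, so this direction was favoured. The tylosin livers read 9.85, 11.26 and 11.74 for Hspa1b, so that 1 of them lay near the amoxicillin livers and the others near the controls. The chaperone partner Bag3 (0.53) and the immediate early genes Myc (0.85) and Dusp1 (0.66) were also higher with tylosin, and the organic anion transporter Slc22a7 (-0.93), Slc13a3 (-0.52) and Ablim3 (-0.63) were lower.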

How the data were processed

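Liver RNA of 3 control, 3 amoxicillin and 3 tylosin mice was hybridized to Affymetrix Mouse Genome arrays, 1 a mouse. The deposited values, log2 values from 2.00 to 14.71, were made by the authors with RMA (affy package) per the labels. No versions are named there. Of 45101 probe sets, 64 manufacturer's controls were left out. In the platform annotation 34945 of the others carry 1 gene symbol, 932 several and 9160 none, which gave 18193 genes. A single limma model (version 3.58.1, R 4.3.3) was fitted to 45037 probe sets on the 9 arrays. P values are unadjusted unless named otherwise, and adjusted p are Benjamini-Hochberg values over all probe sets. The number of arrays limits the precision. The procedure was tested on simulated data.

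The 46 gene lists held 829 genes, 745 of them measured. Members and lists were chosen with earlier results of these data known. Named genes were all falls, the 40 largest rises, called list members, up to 4 leading members of each list described, Hspb1, the genes nearest the fold threshold, those whose call was lost or gained without amoxicillin replicate 1 (8 of each), and those that differed between the antibiotics. Further list members that define a pathway were named after their values were seen. Replicate numbers did not pair the samples: the correlations of same-numbered residuals were -0.07, -0.01 and 0.01. Alternatives were other filters, scalings, variance models, covariates and fold thresholds, and each array left out. A fit without both livers that held gut transcripts, amoxicillin replicate 1 and tylosin replicate 2, was added after the data were seen. Figures were drawn with matplotlib 3.10.9.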

Additional observations from a re-analysis of the deposited data

Results flagged for a closer look

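Of the genes that fell with amoxicillin, 3 differed between the antibiotics by the test of that difference, at an unadjusted limma P under 0.01 and over 0.5 on the log2 scale. Gadd45g was higher with tylosin than with amoxicillin by 1.34, at 8.44, 7.87 and 8.44 in the tylosin livers. Hspa1b was higher by 1.26, and Sult2a2 by 1.40, with Sult2a2 at 11.59, 11.23 and 11.97 in the tylosin livers. None passed an adjusted p under 0.05. The genes had been picked for their fall with amoxicillin, and the test uses the same amoxicillin arrays, which favours higher values with tylosin.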

How the results depend on the processing

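Against 99 rises and 21 falls, an adjusted p under 0.05 left 0 and 0, and a log2 difference over 1 left 1 and 5. Median centring gave 162 and 16, quantile normalization 39 and 39, and the mean of all probe sets of a gene 29 and 15. A mean log2 value over 5 gave 129 and 32, over 7 53 and 16, and no floor 152 and 81. With the Actb 3′ minus 5′ difference as a covariate 56 and 8 were called, and with the mean of the intestinal markers 68 and 12. Leaving out 1 array gave 66 to 155 rises, lowest without control replicate 3 and highest without control replicate 1, and 14 to 33 falls with the same arrays at the ends. Without both amoxicillin replicate 1 and tylosin replicate 2, an alternative chosen after seeing the data, 58 and 13 were called. The fit of the 6 arrays alone gave 113 and 30, a trended and robust variance 107 and 22, array weights 112 and 26, and a floor on the mean of the 6 arrays 97 and 22. The replicate block gave 110 and 27, and kept 61 of 62 named calls. It is given as a check, since the numbers did not pair the samples. None of the 62 named genes called changed sign under the 16 settings run for them. Where the groups did not overlap, the settings that left arrays out could not change a sign. They kept between 19 calls, with the mean of all probe sets, and 61. The causes were not tested. With 3 arrays a group, small differences were not detectable beyond the spread of the livers.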

Other observations

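Of the genes over the floor that were not called, 16 differed by more than 0.8 on the log2 scale, 8 in each direction. They are described here after their values were seen. Rpl27a, a protein of the large ribosomal subunit, read 8.88, 8.82 and 8.995 in the control arrays and 6.76, 8.61 and 6.80 with amoxicillin, so that amoxicillin replicates 1 and 3 lay far below the other 4 livers. In the tylosin livers it read 6.45, 6.32 and 8.71. Rpf2, a factor of large ribosomal subunit assembly, split the livers the same way, at 7.71, 7.67 and 7.91 in the control arrays and 6.32, 7.48 and 6.41 with amoxicillin, and 6.15, 6.02 and 7.80 with tylosin. Their differences from control were -1.50 (adjusted p = 0.31) and -1.02 (adjusted p = 0.32), and the 15 cytosolic ribosomal protein genes of the list, which does not rest on these, had a median of 0.06. Id3, an inhibitor of helix-loop-helix factors, read 9.18, 10.07 and 9.16 in the control arrays and 8.96, 8.48 and 8.45 with amoxicillin, with a difference of -0.84 (adjusted p = 0.28). Dbp, a clock output transcription factor with a steep daily rhythm, ranged widely within the controls, at 8.89, 5.24 and 7.89, and read 7.13, 5.21 and 6.14 with amoxicillin. Trp53inp1, a p53 target, lay higher in every amoxicillin liver, at 10.44, 9.89 and 10.14 in the control arrays and 11.41, 10.90 and 10.60 with amoxicillin, and missed the P threshold at 0.81 (adjusted p = 0.27). The immunoglobulin A heavy chain gene Igha, high in amoxicillin replicate 1, read 11.69, 5.64 and 5.65 in the amoxicillin livers against 5.67, 5.004 and 5.39 in the controls, and Jchain, which joins its molecules, read 10.25, 4.78 and 4.80 against 4.17, 5.004 and 4.21. In the tylosin livers Igha read 6.26, 9.83 and 7.20 and Jchain 5.56, 8.36 and 6.90. Both transcripts are made by plasma cells, which are abundant in gut mucosa.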
